A study of Mus musculus with 10 samples.

Results

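The genes described here carry glucose into the cell, break it down to pyruvate and lactate, move lactate across the cell membrane, and store glucose as glycogen. They were chosen by name as 36 symbols, of which 35 were found directly among the 23337 genes of the deposited table. Pkm was found under its older symbol Pkm2, so that 36 of 36 were measured. Every one of the 36 had a fold change and an adjusted p-value.

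The cells were cardiomyocytes (heart muscle cells) of wild-type mice. Adeno-associated virus AAV9 was given on postnatal day 1 at 5e+08 viral genomes per gram, and cells were collected on postnatal day 14. The vector carried GFP alone in 5 libraries (the GFP group) and dnMKL1 together with GFP in the other 5 (the dnMKL1 group), in both cases behind the cardiac troponin T promoter (cTNT), which is active in cardiomyocytes. Both groups therefore share the virus, the promoter, GFP, the collagenase digestion of the heart and the sorting by fluorescence. dnMKL1 is a dominant-negative form of MKL1 (MRTF-A), a coactivator of serum response factor, and it was expressed beside the cell's own MKL1. The labels do not say whether a replicate was 1 animal or several.

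Glycolysis splits glucose into pyruvate through a chain of enzymes, several of which exist as isoforms encoded by separate genes with different tissue distributions. The fetal heart relies strongly on glucose and lactate, and after birth cardiomyocytes shift to fatty acids as the main fuel. Part of that shift is a change of isoforms, such as the replacement of the glucose transporter GLUT1 (Slc2a1) by the insulin-responsive GLUT4 (Slc2a4). Many genes of the pathway are known targets of the hypoxia-inducible factor HIF-1, which binds a short core motif, ACGTG or GCGTG.

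The deposited table gives 1 comparison of the groups and no value per library, so levels are given as implied group means. These were computed from the base mean (the average over all 10 libraries in normalized counts) and the log2 fold change. The replicate error enters through the deposited standard error (SE). Size factors recovered from genes with a single read ran from 0.660 to 1.28 in GFP and from 0.809 to 1.58 in dnMKL1 libraries (p = 0.532, two-sided exact permutation test). The estimated totals were 8803029 to 17123577 and 8835136 to 17228615 counts per library. Positive fold changes mean higher in dnMKL1 libraries, a reading taken from Mkl1, for which the authors' deposited table gave a log2 value of 9.80 (SE 0.15). Of the cardiomyocyte markers, Myh6 had the largest base mean (594986), and 5 of 7 (Myh6, Tnnt2, Tnni3, Actc1 and Ryr2) fell and 0 rose, with a median log2 fold change of -0.58. In bulk RNA of this kind, fewer cells of a type and less RNA per cell cannot be told apart.

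Of the 36 genes, 6 rose and 12 fell at an adjusted p-value under 0.05 in the authors' deposited table. That is 18 of 36, against a background of 34.1% of 14056 tested genes called, 16.6% higher and 17.4% lower. The genes are more abundant than most, and abundant genes were called more often. Among tested genes at a base mean of 1000 or more, 55.8% were called, 13.7% higher and 42.1% lower. The 24 members at that level had 14 calls (58.3%), 3 higher and 11 lower, a share near that background. Counts for smaller lists below are to be read against the same shares. The median log2 fold change was -0.15 over the 36 members and 0.021 over all tested genes, and, at a base mean of 1000 or more, -0.20 over the 24 members and -0.15 over all tested genes.

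**Figure D1:**
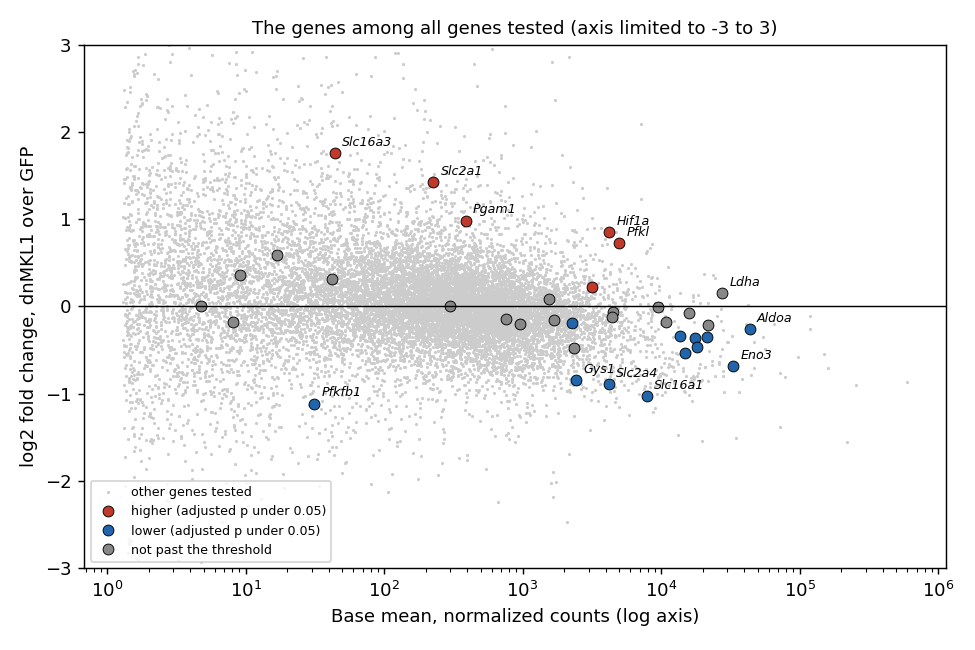
Log2 fold change (dnMKL1 over GFP) against base mean in normalized counts (log axis) for all tested genes in grey and the 36 genes in colour, from the authors' deposited table. Most members lie to the right, above a base mean of 1000; the vertical axis is limited to 3 in each direction, which leaves out 102 genes, none of them members.

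Small changes could differ in direction between scalings. Summed over all genes, the implied means were lower in the dnMKL1 group by 0.29 on the log2 scale, and if both groups are brought to 1 total, 0.29 is added to each gene's value. The 7 cardiomyocyte markers alone made up 10.9% of the implied total in the GFP and 7.49% in the dnMKL1 group, so falls of very abundant genes enter this 0.29. Which scaling is closer to the amounts per cell cannot be told from these data. All values below use the authors' scaling. Under total-count scaling 12 members changed direction, among them the called genes Aldoa and Pgk1. The 6 rises and 6 of the 12 falls (Slc2a4, Slc16a1, Pfkm, Pfkfb1, Eno3 and Gys1) were called in the same direction by both scalings.

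Promoter sequence is shown here for the 6 genes that rose (Slc2a1, Slc16a3, Pfkl, Pfkp, Pgam1 and Hif1a), because several of them are textbook HIF-1 targets, and for Slc16a1 and Gys1, the pair of falling genes with the smallest adjusted p-values. Each line gives the 150 bases before the annotated start site, 5′ to 3′ on the gene's own strand, from the RefSeq promoter table (GRCm38.p6). Capitals mark the HIF core motif ACGTG or GCGTG on either strand, so that CACGT and CACGC are matches read from the opposite strand. The windows are chr4:119108595-119108744 (plus strand) for Slc2a1, chr11:120948917-120949066 (plus) for Slc16a3, chr10:78009808-78009957 (minus) for Pfkl and chr13:6648772-6648921 (minus) for Pfkp. They are chr19:41911721-41911870 (plus) for Pgam1, chr12:73907717-73907866 (plus) for Hif1a, chr3:104638514-104638663 (plus) for Slc16a1 and chr7:45434689-45434838 (plus) for Gys1.
Slc2a1: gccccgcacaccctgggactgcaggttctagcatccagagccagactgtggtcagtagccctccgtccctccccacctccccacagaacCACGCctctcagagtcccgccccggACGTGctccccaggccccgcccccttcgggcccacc
Slc16a3: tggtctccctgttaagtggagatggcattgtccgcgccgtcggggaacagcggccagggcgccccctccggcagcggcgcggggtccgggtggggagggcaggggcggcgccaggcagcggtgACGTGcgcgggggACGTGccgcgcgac
Pfkl: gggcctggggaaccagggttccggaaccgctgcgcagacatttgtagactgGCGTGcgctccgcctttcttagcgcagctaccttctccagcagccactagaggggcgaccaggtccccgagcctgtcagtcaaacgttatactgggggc
Pfkp: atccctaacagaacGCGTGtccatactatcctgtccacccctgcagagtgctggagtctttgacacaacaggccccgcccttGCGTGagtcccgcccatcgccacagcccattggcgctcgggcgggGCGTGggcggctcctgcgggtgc
Pgam1: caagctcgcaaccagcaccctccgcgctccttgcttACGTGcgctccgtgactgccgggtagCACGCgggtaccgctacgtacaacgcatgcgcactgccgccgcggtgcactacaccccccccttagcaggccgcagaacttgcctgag
Hif1a: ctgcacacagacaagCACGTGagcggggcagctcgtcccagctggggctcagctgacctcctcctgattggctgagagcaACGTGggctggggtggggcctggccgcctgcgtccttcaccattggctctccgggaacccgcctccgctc
Slc16a1: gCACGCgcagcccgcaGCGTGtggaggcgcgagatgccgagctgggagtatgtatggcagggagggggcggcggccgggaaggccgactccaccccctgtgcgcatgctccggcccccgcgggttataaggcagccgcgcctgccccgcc
Gys1: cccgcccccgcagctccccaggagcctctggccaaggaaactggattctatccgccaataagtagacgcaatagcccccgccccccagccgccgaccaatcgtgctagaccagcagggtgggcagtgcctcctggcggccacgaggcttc

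The windows of Slc2a1, Slc16a3 and Pgam1 hold 2 marked motifs each, that of Pfkl holds 1, those of Pfkp and Hif1a hold 3, and that of Gys1 holds 0. In Hif1a, 2 of the 3 overlap in the palindrome CACGTG, which is also the E-box. The falling gene Slc16a1 has 2 as well. Over the 250 bases before the start site, 34 of the 36 genes matched the table with 52 promoters, and Slc2a3 and Slc2a4 had no entry. A motif was present for 6 of 6 matched genes that rose, 9 of 11 that fell and 13 of 17 that did not pass the threshold. It was present in 73.1% of the member promoters and in 38.6% of all 32851 promoters, with a median GC content of 60.0% and 52.4%. Taken singly, ACGTG was in 38.5% of member promoters against 16.6% of all, and GCGTG in 51.9% against 28.2%. The CArG box, the motif of serum response factor, was in 0 of the 52 member windows and in 1.47% of all. A match is a run of letters and not a shown binding site.

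Of the 5 transporter genes, 2 rose, 2 fell and 1 did not pass the threshold. GLUT1 and GLUT4 are the main glucose transporters of the heart, GLUT1 constitutive and GLUT4 moved to the surface by insulin and contraction. Slc2a1 had implied means of 123 (GFP) and 331 (dnMKL1) normalized counts. The authors' deposited table gave it a log2 fold change of 1.43 (SE 0.19, Benjamini-Hochberg adjusted Wald p = 1.4e-12), a 2.69-fold rise. Slc2a4 went the other way, from 5477 to 2964 normalized counts, and the authors' deposited table gave -0.89 (SE 0.14, adjusted Wald p = 8.2e-09). Per kilobase of transcript Slc2a4 was still the more abundant gene in both groups, by 57.4-fold in the GFP and 11.5-fold in the dnMKL1 group. Slc2a3, the neuronal-type transporter GLUT3, was close to undetected at 8.65 and 7.62 normalized counts, and its 95% interval of -1.22 to 0.85 on the log2 scale allows a change of more than 1.5-fold either way.

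Lactate and pyruvate cross the membrane through monocarboxylate transporters, MCT1 (Slc16a1) in heart and oxidative muscle and MCT4 (Slc16a3) in cells that export lactate. Slc16a1 was at 10596 normalized counts with GFP alone and at 5192 with dnMKL1. With a log2 fold change of -1.03 (SE 0.10, adjusted Wald p = 9.2e-23) in the authors' deposited table, it had the smallest p-value of the 36 genes. Slc16a3 rose from 20.1 to 67.8 normalized counts, the largest fold of the set: the authors' deposited table gave 1.75 (SE 0.33, adjusted Wald p = 9.6e-07), or 3.37-fold. Even so, per kilobase it stood 75.0-fold below Slc16a1 in the dnMKL1 group, against 515-fold in the GFP group. Basigin (Bsg), the chaperone that carries both transporters to the surface, fell with a log2 fold change of -0.79 (SE 0.14) in the authors' deposited table, and Slc16a7 (MCT2) fell by 1.04 (SE 0.29) there.

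**Figure D2:**
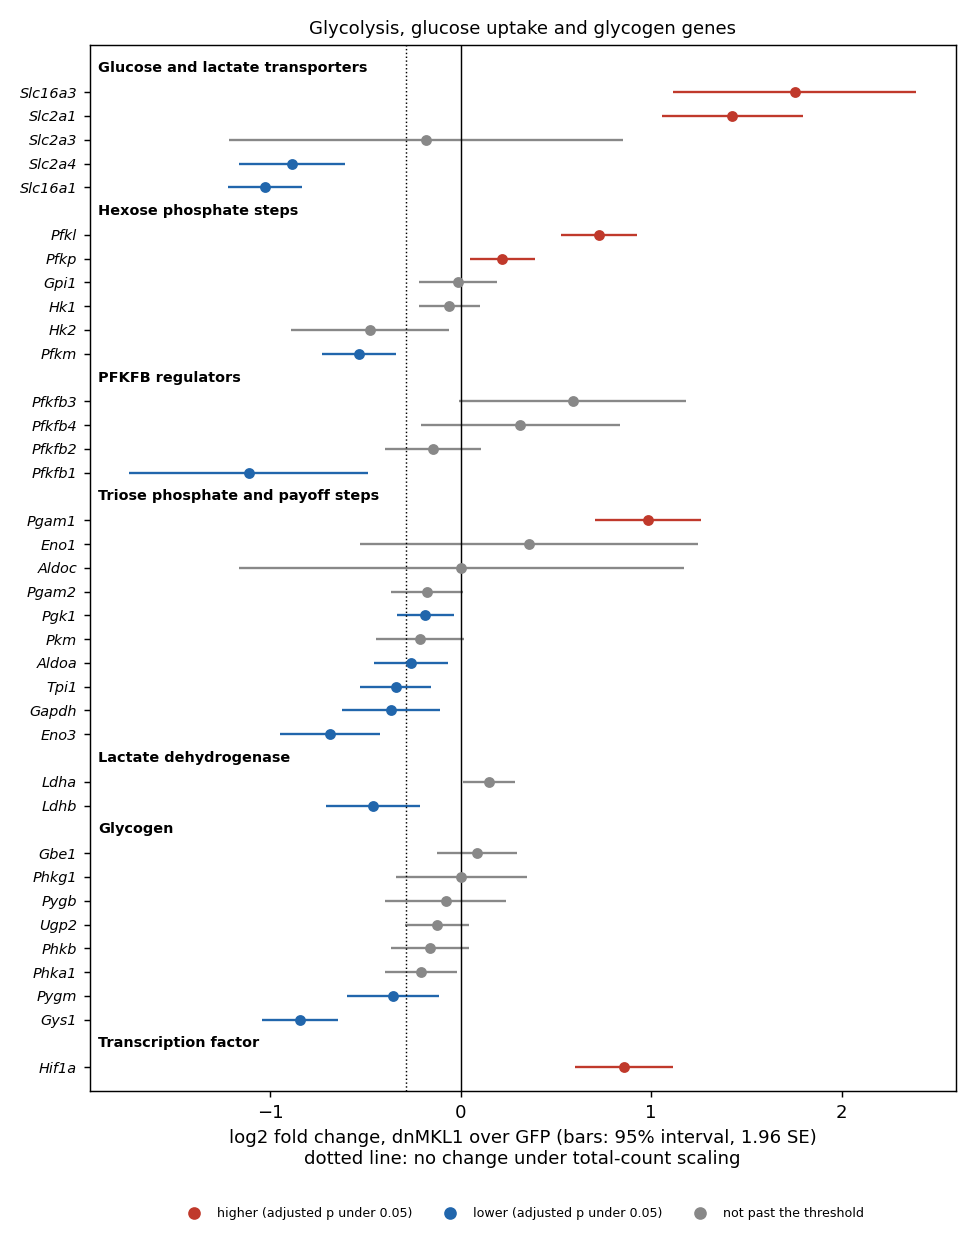
Log2 fold change (dnMKL1 over GFP) of each gene with its 95% interval (1.96 SE), grouped by role; red genes rose, blue genes fell and grey genes did not pass an adjusted p-value of 0.05. Rises and falls occur side by side within the transporters and within the phosphofructokinases, and the dotted line at -0.29 marks no change under total-count scaling.

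The first steps of the pathway trap and rearrange glucose. Hexokinase 1 (Hk1), which phosphorylates glucose in most tissues, stood at 4616 and 4427 normalized counts, with a log2 fold change of -0.060 and an interval of -0.22 to 0.10 that turned positive (0.23, and called) under total-count scaling. Hexokinase 2 (Hk2), the insulin-regulated muscle form, stood at 2748 and 1976 normalized counts. The authors' deposited table gave -0.48 for it, not past the threshold (SE 0.21, adjusted Wald p = 0.067). That SE was 2.58 times that of Hk1 and 2.12 times the median of the 200 genes nearest in base mean, so the change of Hk2 was measured less precisely than that of most genes of its level. Glucose-6-phosphate isomerase (Gpi1) stood at 9554 and 9477 normalized counts, with an interval of -0.22 to 0.19, and it was called higher under total-count scaling (0.28).

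Phosphofructokinase, the committed step, is built from muscle (Pfkm), liver (Pfkl) and platelet (Pfkp) subunits, and these moved apart. Pfkm went from 17531 normalized counts with GFP alone to 12121 with dnMKL1, and fell by 0.53 (SE 0.10, adjusted Wald p = 9.6e-07) in the authors' deposited table. Pfkl rose from 3764 to 6236, a log2 fold change of 0.73 (SE 0.10, adjusted Wald p = 2.7e-11) in the authors' deposited table. Pfkp rose by a smaller amount, from 2938 to 3419, with 0.22 (SE 0.087, adjusted Wald p = 0.036) in the authors' deposited table. Per kilobase of transcript, Pfkm made up 78.0% of the 3 subunits' level in the GFP and 62.8% in the dnMKL1 group, Pfkl 12.9% and 24.9%, and Pfkp 9.08% and 12.3%.

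The PFKFB enzymes make and remove fructose 2,6-bisphosphate, the strongest activator of phosphofructokinase. Pfkfb2, the heart form, was the most abundant at 801 and 723 normalized counts and did not pass the threshold (-0.15, interval -0.40 to 0.11). Pfkfb1, known from liver and muscle, fell from 43.0 to 19.9 normalized counts, with -1.11 (SE 0.32, adjusted Wald p = 0.0025) in the authors' deposited table. Pfkfb3 and Pfkfb4, both hypoxia-inducible, were low, with 13.5 and 37.3 normalized counts for GFP alone and 20.2 and 46.3 for dnMKL1. Their log2 fold changes of 0.59 (SE 0.30) and 0.31 (SE 0.27) in the authors' deposited table did not pass the threshold, and both passed it under total-count scaling.

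The later part of glycolysis, from aldolase to pyruvate kinase, had 1 rise and 5 falls among 10 genes. That called share of 60.0% stands against 34.1% of all tested genes and 55.8% of those at a base mean of 1000 or more. Aldolase A (Aldoa), the muscle aldolase, was the most abundant of the 36 genes per kilobase, at 30743 normalized counts per kilobase in the GFP and 25673 in the dnMKL1 group. It fell by 0.26 (SE 0.099, adjusted Wald p = 0.028) in the authors' deposited table, a change that turned to 0.028 under total-count scaling. Triose phosphate isomerase (Tpi1) fell by 0.34 (SE 0.096, adjusted Wald p = 0.0020) and glyceraldehyde-3-phosphate dehydrogenase (Gapdh) by 0.36 (SE 0.13, adjusted Wald p = 0.019) in the authors' deposited table. Gapdh, often used as a reference gene, thus went from 19869 to 15430 normalized counts. Phosphoglycerate kinase (Pgk1) fell by 0.19 (SE 0.076, adjusted Wald p = 0.043) in the authors' deposited table and turned to 0.10 under total-count scaling. The falls of Tpi1 and Gapdh lost their calls there, with -0.054 and -0.076.

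Phosphoglycerate mutase and enolase also have muscle and widely expressed forms. Pgam2, the muscle mutase, stood at 11588 and 10240 normalized counts and did not pass the threshold (-0.18, interval -0.37 to 0.0102). Pgam1, the widely expressed form, rose from 261 to 517 normalized counts, and the authors' deposited table gave 0.98 (SE 0.14, adjusted Wald p = 9.2e-11). Eno3, the muscle enolase, fell from 40884 to 25432 normalized counts, with -0.68 (SE 0.13, adjusted Wald p = 3.1e-06) in the authors' deposited table, the largest fall of this group. Pyruvate kinase (Pkm, both of whose splice forms are counted under 1 symbol) stood at 23353 and 20147 normalized counts and did not pass the threshold (-0.21, interval -0.44 to 0.018). Aldoc, the brain aldolase, was near the counting floor at 4.73 and 4.74 normalized counts.

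Several of these genes have near-identical copies elsewhere in the genome, and how the authors' counting treated reads that fit more than 1 place is not given in the sources used here. Of the 50-base windows of the longest GENCODE transcript, 72.2% for Eno1, 82.5% for Gapdh, 68.0% for Pgk1, 41.5% for Pgam1, 34.4% for Pkm, 27.0% for Ldhb and 25.1% for Pfkfb2 also occur in transcripts of another gene. Eno1, the widely expressed enolase, was listed with a base mean of only 9.15 normalized counts, and 70.5% of its windows are shared with the copy Eno1b, so neither its level nor its log2 fold change of 0.36 (SE 0.45) in the authors' deposited table can be read as that of the gene. Pgam1 shares its windows chiefly with the pseudogene Pgam1-ps2, and its value is uncertain to that extent, as are those of Ldhb and of the comparison of Ldha with Ldhb. The same holds for Pkm and Pfkfb2, and more so for Gapdh and Pgk1, whose shares are larger than that of Pgam1. Leaving out the 7 members with 20% or more shared windows left 5 rises and 9 falls among 29 genes.

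Lactate dehydrogenase interconverts pyruvate and lactate, with the A subunit prominent in glycolytic tissue and the B subunit in heart. Ldhb fell from 21138 to 15369 normalized counts, with -0.46 (SE 0.13, adjusted Wald p = 0.0015) in the authors' deposited table. Under total-count scaling this was -0.17 and no longer called. Ldha stood at 26333 and 29213 normalized counts. Its log2 fold change of 0.15 in the authors' deposited table did not pass the threshold (SE 0.069, adjusted Wald p = 0.080) but was called at 0.44 under total-count scaling. Per kilobase, Ldha made up 47.2% of the pair's level with GFP alone and 57.7% with dnMKL1, so that the larger of the implied levels was that of Ldhb in the former and that of Ldha in the latter. Without division by length, Ldha was the larger in both groups, at 55.5% and 65.5% of the pair.

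**Figure D3:**
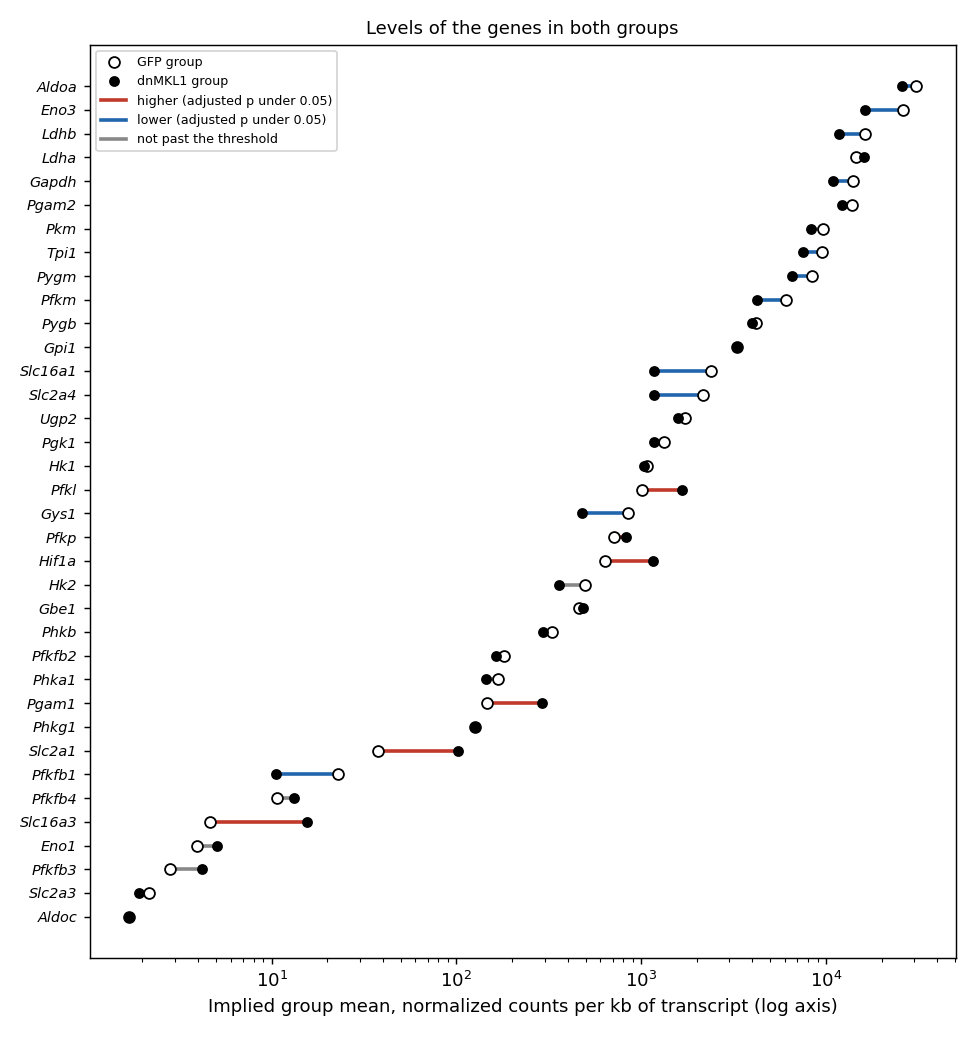
Implied group means in normalized counts per kilobase of transcript (log axis) for each gene, open circles for the GFP and filled circles for the dnMKL1 group, ordered by the GFP level. Slc2a1 and Slc16a3 remain far below Slc2a4 and Slc16a1, while Ldha moves above Ldhb (on this scale per length) and Pfkl closes part of its distance to Pfkm.

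Whether forms of 1 enzyme moved apart was examined on the difference of their log2 fold changes, which does not depend on scaling. The covariance between genes is not in the table, so each interval used the sum of both SEs, the widest that any correlation allows. Of the 11 pairs compared, 10 set another form, named first, against the one typical of adult muscle or heart. In each of these 10 the gene named first had the larger log2 fold change, though the value of Eno1 cannot be read as that of the gene. Except for Hk1 against Hk2 and Ldha against Ldhb, the gene named first was also the one with the smaller base mean. Abundant genes leaned lower in general, with a median log2 fold change of -0.15 at a base mean of 1000 or more and 0.021 over all tested genes. The part of abundance in the shared direction was not tested. Of these 10 pairs, 6 had an interval that left out 0. These were Slc16a3 against Slc16a1 (2.78, interval 1.95 to 3.61), Slc2a1 against Slc2a4 (2.31, 1.67 to 2.96), Pfkl against Pfkm (1.26, 0.87 to 1.65), Pgam1 against Pgam2 (1.16, 0.70 to 1.63), Pfkp against Pfkm (0.75, 0.39 to 1.12) and Ldha against Ldhb (0.61, 0.23 to 0.99). The other 4 held 0: Eno1 against Eno3 (-0.11 to 2.19), Hk1 against Hk2 (-0.16 to 0.99), Pygb against Pygm (-0.28 to 0.83) and Aldoc against Aldoa (-1.10 to 1.63). The remaining pair, Pfkl against Pfkp, holds no muscle form and its order was set after seeing the result (0.51, 0.14 to 0.88). The PFK pairs share genes and are not independent.

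**Figure D4:**
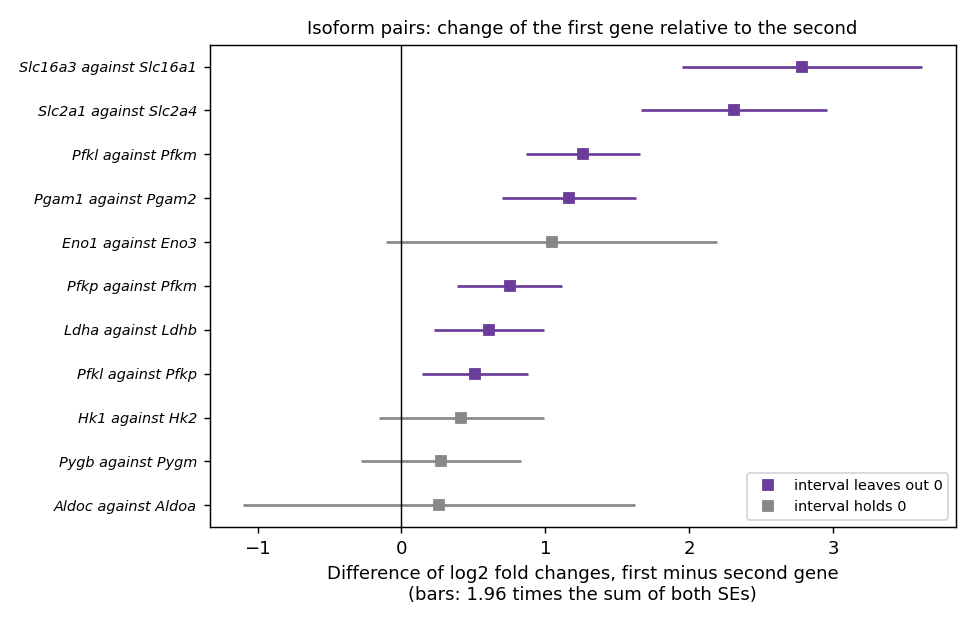
Difference of log2 fold changes between isoforms of the same enzyme or transporter type (first minus second gene), with bars of 1.96 times the sum of both SEs. The differences run from 0.26 for Aldoc against Aldoa to 2.78 for Slc16a3 against Slc16a1, and 7 of the 11 bars leave out 0.

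Glycogen genes had 0 rises and 2 falls among 8. Glycogen synthase 1 (Gys1), the muscle enzyme that lengthens glycogen chains, fell from 3141 to 1752 normalized counts, with -0.84 (SE 0.10, adjusted Wald p = 1.0e-14) in the authors' deposited table. The muscle phosphorylase Pygm, which releases phosphorylated glucose from glycogen, fell from 24118 to 18861 normalized counts, with -0.35 (SE 0.12, adjusted Wald p = 0.014) in the authors' deposited table, and was not called under total-count scaling (-0.066). The brain form Pygb stood at 16374 and 15506 normalized counts, with an interval of -0.40 to 0.24 on the log2 scale. UDP-glucose pyrophosphorylase (Ugp2), which makes the glucose donor, and the branching enzyme (Gbe1) had intervals of -0.29 to 0.042 and -0.12 to 0.30. Of the phosphorylase kinase subunits, which switch phosphorylase on, Phka1 had -0.21 (SE 0.096, adjusted Wald p = 0.085), Phkb -0.16 (SE 0.10) and Phkg1 0.0024 (SE 0.18) in the authors' deposited table, and none passed the threshold. The fall of Gys1 was thus larger than any other change among these 8 genes, and its interval of -1.04 to -0.64 does not overlap that of Pygm (-0.59 to -0.12).

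Other genes of glycogen turnover, listed from the pathway but with earlier results of these data known, had 3 rises and 7 falls among 20 tested. Their median log2 fold change was -0.25. The phosphoglucomutase gene listed as Pgm2 had -0.72 (SE 0.095) and Ppp1r3c, a subunit that brings protein phosphatase 1 to glycogen, -0.51 (SE 0.12) in the authors' deposited table. Which phosphoglucomutase that symbol stood for depends on the annotation, which is not given. Of the other genes of glucose transport and its regulation, 2 rose and 3 fell among 17 tested. Here the authors' deposited table gave -0.68 (SE 0.13) for Tbc1d4, which holds GLUT4 inside the cell until insulin acts, 0.57 (SE 0.20) for its relative Tbc1d1, and -0.56 (SE 0.20) for the transporter gene Slc2a12. Among 12 tested genes of other glycolytic enzymes and monocarboxylate transport, 1 rose and 4 fell, including Tigar (listed under an older symbol), a fructose-2,6-bisphosphatase, with -0.61 (SE 0.12) in the authors' deposited table. Pentose phosphate, polyol and shuttle genes had 3 rises and 8 falls among 15 tested. The smallest p-values were those of the malate-aspartate shuttle, with -0.92 (SE 0.10) for Got1, -0.79 (SE 0.099) for Got2 and -0.80 (SE 0.10) for Mdh2 in the authors' deposited table. Over the other pathway genes together, 44 of 88 tested were called, 15 higher and 29 lower, and under total-count scaling 25 higher and 11 lower. Under the authors' scaling, 34.1% of all tested genes were called, 16.6% higher and 17.4% lower. At a base mean of 1000 or more the called share was 55.8%, with 13.7% higher and 42.1% lower. The counts of each list in this paragraph are to be read against these shares.

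Hif1a encodes the oxygen-regulated subunit of HIF-1, whose amount is set mainly by protein stability rather than by its transcript. Hif1a rose from 3014 to 5452 normalized counts, with 0.86 (SE 0.13, adjusted Wald p = 1.6e-09) in the authors' deposited table, a 1.81-fold rise. Of 9 other genes of the HIF pathway, 2 rose (Hif3a and Arnt2, both with base means under 25) and 4 fell. The falls were Epas1, which encodes HIF-2α, with -0.54 (SE 0.11), and genes whose products hydroxylate HIF-α. These were Hif1an with -0.44 (SE 0.12), Egln1 with -0.54 (SE 0.16) and Egln3 with -0.49 (SE 0.17) in the authors' deposited table. Egln2, a further gene of that kind, did not pass the threshold (-0.15, SE 0.097). Under total-count scaling Epas1, Hif1an and Egln1 were at -0.25, -0.15 and -0.25.

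HIF targets outside glycolysis had 4 rises and 3 falls among 15, with a median log2 fold change of 0.26 that became 0.54 under total-count scaling. Called shares were 46.7% here and 66.7% in the HIF pathway list, against 34.1% of all tested genes. P4ha1, a collagen prolyl hydroxylase subunit, rose by 0.57 (SE 0.11) and Ddit4, an inhibitor of mTORC1, by 0.96 (SE 0.22) in the authors' deposited table. Vegfa, the main angiogenic ligand, fell by 0.36 (SE 0.074) there. Under total-count scaling the 3 genes that fell, Vegfa, P4ha2 and Higd1a, were at -0.067, -0.050 and -0.073, each within 1 SE of 0.

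**Figure D5:**
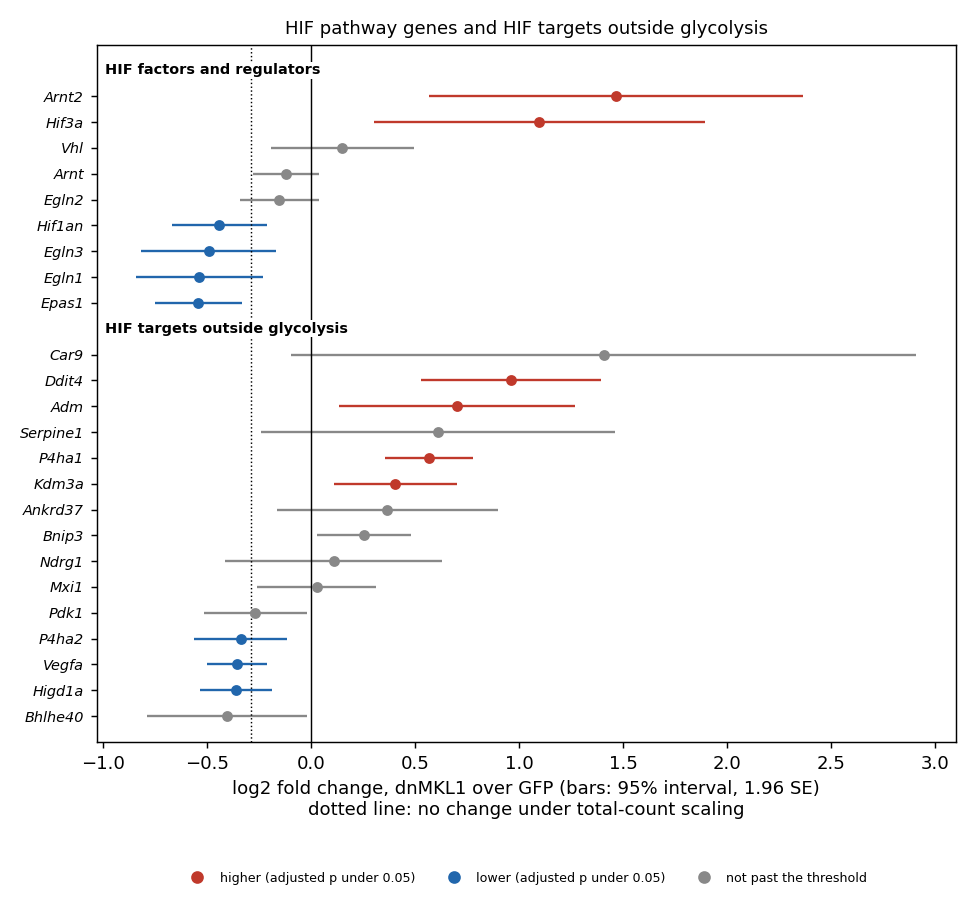
Log2 fold change (dnMKL1 over GFP) with its 95% interval for 9 genes of the HIF pathway and 15 HIF targets outside glycolysis, coloured as rises (red), falls (blue) and genes not past the threshold (grey). Both groups hold rises and falls under the authors' scaling, and the 3 falls among the targets lie near the dotted line at -0.29, which marks no change under total-count scaling.

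Markers of other cell types were read beside the members that rose, since Slc2a1, Slc16a3, Pfkl, Pfkp and Pgam1 are also expressed outside cardiomyocytes. Fibroblast markers had 4 rises (Gsn, Col1a1, Col1a2 and Col3a1) and 0 falls among 10, a called share of 40.0% against 34.1% of all tested genes. All 10 had positive log2 fold changes with a median of 0.47. Their summed implied means went from 4437 to 6890 normalized counts, a log2 ratio of 0.63. Gsn weighs heavily in that rise, with the largest log2 fold change of the 10 (1.15, SE 0.10, base mean 1414) in the authors' deposited table. Col3a1 was the most abundant of them (base mean 2281), and Pdgfra and Tcf21, more restricted fibroblast markers, were at 0.063 (SE 0.25) and 0.79 (SE 0.52) in the authors' deposited table and were not past the threshold. Mural markers summed to 7812 and 10919 normalized counts, with 2 rises (Cspg4 and Myh11) among 8. Most of that sum was Abcc9 (base mean 7052), which did not pass the threshold at 0.30 (SE 0.15), and Cspg4 had 2.01 (SE 0.18). Although 7 of the 8 were positive, Pdgfrb, Rgs5 and Kcnj8 were at 0.18 (SE 0.24), 0.014 (SE 0.31) and 0.029 (SE 0.30) in the authors' deposited table. The sum thus does not show a shared rise of the mural markers. Macrophage markers summed to 168 and 146 normalized counts, with a rise of Cd68 alone among 9 and Lyz2 the most abundant (base mean 50.3). The part of fibroblast, mural and macrophage RNA in the rises of the members was not tested. The 10 endothelial markers summed to 3905 and 3925 normalized counts, and Kdr was the most abundant (base mean 876). Their SEs ran from 0.25 (Flt1) to 0.52 (Fabp4) in the authors' deposited table, too wide to show unchanged levels. Of the 10, 0 were called (also 0 at an unadjusted p-value under 0.05 by the authors' Wald test, the only test run). Of the erythroid markers, Hba-a1 and Hba-a2 were listed at 0, none of 3 tested passed the threshold by that test (0 at an unadjusted p-value under 0.05), and Hbb-bs, listed as Beta-s, was the most abundant (base mean 57.0).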

How the data were processed

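RNA from sorted cardiomyocytes was sequenced in 5 GFP and 5 dnMKL1 libraries. Per the labels' protocols, a SMART-Seq kit made cDNA from 10 ng of total RNA over 8 PCR cycles, and 500 pg of cDNA entered Nextera XT. Per the submitters' processing notes, CASAVA 1.8, STAR 2.5.3a, featureCounts, Subread 1.5.2 and mm10 were used; the annotation and strand setting are not given in the sources used here. Reads carry no molecular identifiers. All intervals given here were computed from the deposited SE, and no other error was computed.

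The authors' deposited table holds, per gene, a base mean (a signal in normalized counts), a log2 fold change and its SE (log2), a Wald score, a p-value and a Benjamini-Hochberg adjusted p-value, per the file headers. The score equals the fold change divided by its SE (largest gap 1.14e-05), and adjustment was recomputed over 14056 genes (largest gap 1.44e-07). The planned edgeR test needs counts per library, so calls rest on the authors' adjusted p-value (under 0.05), as planned for that case. P-values measure the spread between these libraries.

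From the table, implied group means, intervals of 1.96 SE and isoform differences were computed (Python 3.11.15, pandas 2.3.3, scipy 1.17.1), after checks on simulated data. Size factors came from genes with 1 read in 1 library. Transcript lengths and shared 50-base windows came from GENCODE M21 (GRCm38), promoters and older symbols from RefSeq. Alternatives were other thresholds, adjustment over all p-values, a minimum fold, a base mean of at least 100 and 2 other scalings. All members were named, and up to 3 called genes with the smallest adjusted p-values from each other pathway list, of which 1 is not reported here. Members and lists were chosen with earlier results of these data known.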

Additional observations from a re-analysis of the deposited data

How the results depend on the processing

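No paired analysis was possible because the deposited table holds no values per library, and for the same reason no count test and no fit without 1 library was run, so whether 1 library decides a value is unknown. Total-count scaling, which by construction adds 0.29 to every log2 fold change, turned the 6 rises and 12 falls among the members into 12 and 6, the 15 and 29 among other pathway genes into 25 and 11, and the 2340 and 2452 among all genes into 5685 and 927. It reversed the members' median to 0.13, and the values of Hk1 to 0.23, Gpi1 to 0.28, Aldoa to 0.028 and Pgk1 to 0.10. Requiring an absolute log2 fold change of 0.5 or more, which fewer genes can pass, left 11 members (6 lower), 27 other pathway genes (16 lower) and 2735 genes in all (1489 higher, 1246 lower). An adjusted p-value under 0.01 left 13 members, with Pfkp, Aldoa, Gapdh, Pgk1 and Pygm lost, one under 0.1 gave 21, with Hk2, Ldha and Phka1 added, and adjustment over all p-values left 17, with Pgk1 lost. Median-centring changed no member's call. A base mean of at least 100 left 16 calls among the 29 members that could be tested, since 7 are less abundant. Leaving out members with shared windows was chosen after seeing the data. The depth limits Slc2a3 and Aldoc, each under 10 normalized counts in both groups.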

Other observations

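Some pathway genes outside the naming rule were picked after their values were seen. G6pdx, the entry enzyme of the pentose phosphate pathway, which supplies NADPH and ribose, rose from 37.6 to 117 normalized counts, with a log2 fold change of 1.64 (SE 0.25, adjusted Wald p = 2.35e-09) in the authors' deposited table. Of the enzymes that follow it, Tkt rose by 0.77 (SE 0.20) and Rpe by 0.52 (SE 0.089) in the authors' deposited table, while Pgls and Taldo1 fell by 0.34 (SE 0.094) and 0.20 (SE 0.080). Rpia, with a base mean of 6.78, fell by 1.49 (SE 0.50), and Pgd did not pass the threshold (-0.019, SE 0.094) in the authors' deposited table.

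Pygl, the liver glycogen phosphorylase, rose from 120 to 287 normalized counts, with 1.25 (SE 0.37, adjusted Wald p = 0.0034) in the authors' deposited table. That SE was 2.84 times the median of the 200 genes nearest in base mean. The muscle form Pygm fell, though not past the threshold under total-count scaling. Stbd1, which tethers glycogen to membranes, and Phkg2, the liver-type catalytic subunit of phosphorylase kinase, rose by 0.56 (SE 0.17) and 0.43 (SE 0.14) in the authors' deposited table. Among glucose regulators, Irs2 and Akt1 had SEs of 0.58 and 0.56 at base means of 782 and 1347 normalized counts, wider than those of the members at similar levels, and neither passed the threshold.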
